A study of Homo sapiens with 4 samples.

Results

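The genes described here are 8 genes, CPVL, SUMF1, FAM46C, GALNT6, GLRX, TDRKH, CDC123 and PROSC, of 13928 tested in 2 breast cancer cell lines. They were chosen by their measured change: each was at least 2-fold lower in the hnRNPM knockdown library than in the control library of both lines. Each also has a particular 8-letter sequence, CATAGGAA, in its 3' untranslated region (3' UTR). By the search used here 18 genes meet both criteria, and the 8 were picked from them by name. Both criteria came from these libraries, so the lower levels themselves are given as values with no test. The study measured polyadenylated RNA after depletion of hnRNPM, an RNA-binding protein of the nucleus, in derivatives of the triple-negative line MDA-MB-231. BM1 (1833) is the bone metastasis derivative and LM2 (4175) the lung metastasis derivative. In each line, cells stably expressing a non-specific shRNA from a lentiviral vector gave 1 control library. Cells stably expressing an shRNA against hnRNPM gave 1 knockdown library, so there were 4 libraries in all. Both arms therefore carried a lentiviral shRNA, and the sources used here give the sequence of neither shRNA. Changes within a line compare 2 libraries, with no replicate.

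An shRNA is cut in the cell to a short duplex, and its guide strand is loaded into an Argonaute protein that cleaves a fully paired messenger RNA. The same guide can lower other messenger RNAs through its seed, the bases near its 5′ end, in the way a microRNA does. Such sites lie mostly in 3' UTRs. The best-known form pairs with bases 2 to 8 of the guide and has an A opposite base 1. Genes carrying such a site can move in a knockdown whether or not they depend on the targeted protein. Which of these applied to any gene below was not tested.

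The sites of the 8 genes are shown because they are what the genes have in common. Each sequence is written 5′ to 3′ on the messenger RNA strand, with the 14 bases before the site and the 8 bases after it, and the capitals mark the 8-letter site. They were read from GENCODE 29 transcripts (GRCh38), in the transcript of each gene with the longest 3' UTR. The site of CPVL is at chr7:28995695-28995702 (minus strand), that of SUMF1 at chr3:4361444-4361451 (minus), that of FAM46C at chr1:117627997-117628004 (plus) and that of GALNT6 at chr12:51352981-51352988 (minus). The site of GLRX is at chr5:95814378-95814385 (minus), that of TDRKH at chr1:151774213-151774220 (minus) and that of CDC123 at chr10:12250542-12250549 (plus). The sequence around the PROSC site is not printed here.
CPVL: aaaacagaaaatgtCATAGGAAtaaaaaaa
SUMF1: tcagccgttgaacaCATAGGAAtgtctgtg
FAM46C: cttgtgtgtgtttgCATAGGAAggtgagat
GALNT6: tggcctccacagagCATAGGAAaacagcca
GLRX: tcctccacagatctCATAGGAAatgttcaa
TDRKH: ttggcaggatttggCATAGGAAttggtgca
CDC123: aaatagatcttaaaCATAGGAAaaccatac

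The first 7 letters of the site, CATAGGA, also occur in the coding sequence of HNRNPM, the gene targeted by the knockdown. The place is chr19:8473680-8473686 (GRCh38, plus strand), in exon 12 of 17 of a coding transcript, and it is shown so that the flanks can be compared. The capitals here mark the 7 letters, which are followed by a T instead of the final A. In the 14 bases before the site, the 8 genes matched HNRNPM at 3 to 6 positions (median 4), and the 413 other genes with the site at 0 to 9 (median 3). The 7-letter sequence was in 3 of 5 coding transcripts of HNRNPM. It is a common one, present somewhere in the transcript of 12.7% of 11287 genes, so its presence in HNRNPM does not identify the shRNA.
HNRNPM: atgggaatggaaggCATAGGAtttggaata

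One human microRNA has a seed complementary to these letters. Of 2351 distinct mature microRNA sequences in RefSeq (GRCh38.p14), the one whose bases 2 to 8 pair with CATAGGA was hsa-miR-202-5p, encoded at chr10:133247572-133247593 on the minus strand. It is shown with its seed in capitals because a guide with the same seed would recognise the same sites. Mature microRNAs were not measured in these libraries, and no entry for MIR202 or a host gene of that name was in the table used here.
hsa-miR-202-5p: uUCCUAUGcauauacuucuuug

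The targeted gene was checked first. In FPKM, fragments scaled to gene length and library size, HNRNPM had 171 in the control and 28.4 in the knockdown library of BM1. The LM2 libraries had 132 and 20.3 FPKM. The knockdown libraries thus kept 16.6% (BM1) and 15.4% (LM2) of the control level. As a check of the label, VIM, the vimentin gene of mesenchymal-like breast cancer lines, was at 1160 to 2354 FPKM, and ERBB2, the HER2 receptor, was at 13.5 to 21.9 FPKM. The estrogen and progesterone receptor genes were not analysed here. On the other strand, ELAVL1 overlaps HNRNPM. The libraries were stranded, but the sources used here do not say whether strand was used when fragments were counted. Library depths, inferred from the steps between low FPKM values, ranged from about 22800000 to 41500000 fragments. In 3 of the 4 libraries a depth 2 times as large also gave whole steps, and the smaller depth was used, so the depths and the fragment numbers built on them may be too low. The lowest value among the 8 genes, SUMF1 in the BM1 knockdown library, stands for about 59.6 fragments at the smaller depth (95% Poisson interval 45.8 to 77.2, which covers counting error only).

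In all 8 genes both control libraries were above both knockdown libraries, which is what their choice required within each line. The level left in the knockdown library ranged from 14.6% to 37.6% of control in BM1 (median 18.5%) and from 13.1% to 41.2% in LM2 (median 31.5%). Changes are differences of log2(FPKM + 1), knockdown minus control, and this scale understates changes of genes with low values. The median change of the 8 was -1.78 in BM1 and -1.37 in LM2, where the medians over all 13928 tested genes (mean of at least 1 FPKM over the libraries) were 0.00 and -0.04. A change of at least 2-fold downward was found in 6.2% of all tested genes in BM1, in 4.24% in LM2 and in 1.95% in both lines. Since this rule chose the 8 genes, nothing is read from their count against those shares. On this scale CPVL alone of the 8 was at least 4-fold lower in both lines, and with a pseudocount of 0.1 or 0.5 SUMF1 was as well.

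**Figure D1:**
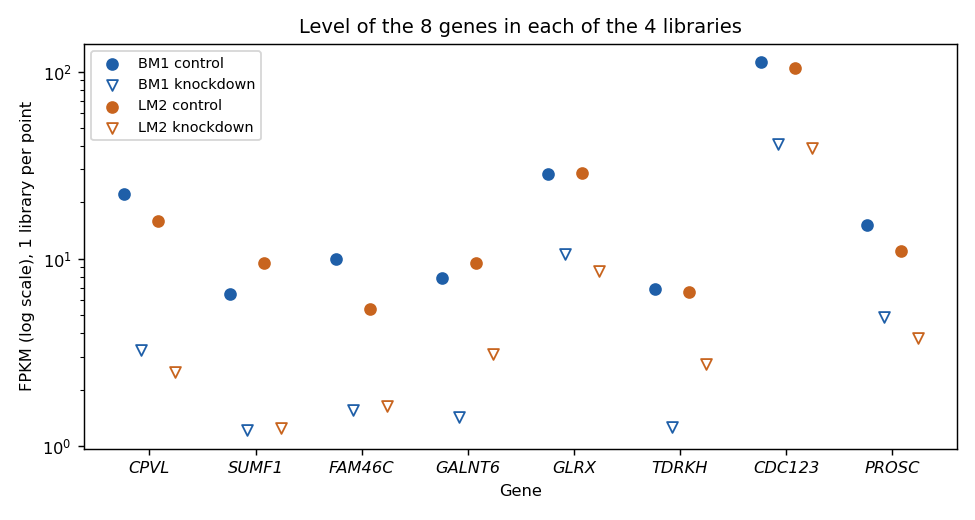
FPKM of each gene (log axis) in the 4 libraries, 1 point per library, with circles for controls, triangles for knockdowns, blue for BM1 and orange for LM2; genes run from the largest to the smallest mean change. Every triangle lies below both circles of its gene, and the levels run from 1.21 FPKM (SUMF1) to 112 FPKM (CDC123).

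CPVL, SUMF1 and GALNT6 encode proteins of the secretory pathway. CPVL, a carboxypeptidase related to the lysosomal protective protein, was at 22.3 FPKM (control) and 3.25 FPKM (knockdown) in BM1, against 16.0 and 2.49 in LM2. In each line the control value is given first. The knockdown libraries lay together at the bottom, and the change was -2.46 in BM1 and -2.28 in LM2. SUMF1, which makes the formylglycine that sulfatases need in their active site, was at 6.51 and 1.21 FPKM in BM1, against 9.50 and 1.25 in LM2. Its knockdown libraries were close to each other while its LM2 control was the highest, so the change was larger in LM2 (-2.23) than in BM1 (-1.76). GALNT6, an enzyme that starts mucin-type O-glycosylation, was at 7.88 and 1.42 FPKM in BM1, against 9.44 and 3.09 in LM2. Here the BM1 knockdown stood alone at the bottom, with changes of -1.87 in BM1 and -1.35 in LM2.

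FAM46C and TDRKH encode proteins that act on RNA. FAM46C (TENT5C in GENCODE 29), a noncanonical poly(A) polymerase, was at 9.92 and 1.55 FPKM in BM1, against 5.37 and 1.63 in LM2. The controls differed and the knockdown libraries hardly did, giving changes of -2.10 and -1.28. TDRKH, a Tudor and KH domain protein of the piRNA pathway, was at 6.90 and 1.26 FPKM in BM1, against 6.67 and 2.75 in LM2. The controls were alike and the LM2 knockdown was above the BM1 knockdown, with changes of -1.80 and -1.03. TDRKH in LM2 is the value nearest the 2-fold limit, and it was at -0.99 with median-ratio size factors and -0.96 with quantile normalization.

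GLRX, CDC123 and PROSC encode soluble proteins of the cell's general metabolism. GLRX, a glutaredoxin that removes glutathione from protein thiols, was at 28.2 and 10.6 FPKM in BM1, against 28.6 and 8.56 in LM2. CDC123, which helps to assemble the translation factor eIF2, was the most abundant of the 8, at 112 and 41.0 FPKM in BM1, against 104 and 38.9 in LM2. PROSC (PLPBP in GENCODE 29), a pyridoxal phosphate-binding protein, was at 15.2 and 4.89 FPKM in BM1, against 11.0 and 3.79 in LM2. These 3 had similar changes in the lines, -1.33 and -1.63 for GLRX, -1.43 and -1.39 for CDC123, and -1.46 and -1.33 for PROSC. They kept more of their control level than CPVL, between 30% and 37.6%.

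The lines were compared within the 8 genes. The change was larger in BM1 for 6 genes and larger in LM2 for SUMF1 and GLRX. With quantile normalization CDC123 turned to the LM2 side, which left 5 genes against 3. The changes of the lines were 0.82 apart in FAM46C, 0.77 in TDRKH, 0.52 in GALNT6 and 0.04 in CDC123. The order of the first pair depends on the pseudocount, since TDRKH had the larger gap with 0.1 (1.11 against 0.94 in FAM46C) and with 0.5 (0.93 against 0.88). With 1 library per line and arm, this gap could not be tested.

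The level in LM2 against BM1 was not used to choose the genes, and it was tested with limma over all tested genes with treatment as a term. None of the 8 genes had an adjusted p under 0.05, and 0 had an unadjusted p under 0.05, while 4.35% of all tested genes were called. The estimates ranged from -0.37 in CPVL to 0.49 in GALNT6 (median -0.11, against -0.01 over all tested genes). GALNT6 had the lowest adjusted p (0.313, limma), with a difference of 0.49 ± 0.27 (standard error) and a 95% interval of -0.11 to 1.10. CDC123 had the smallest difference, -0.09 ± 0.25, with an interval of -0.66 to 0.48. The intervals of all 8 genes include 0 and differences of either sign, so the test does not show that the lines have equal levels. The fit has 1 residual degree of freedom per gene, which is the gap between its BM1 and LM2 changes. The rule that chose the 8 genes by a fall in both lines bears on that gap.

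**Figure D2:**
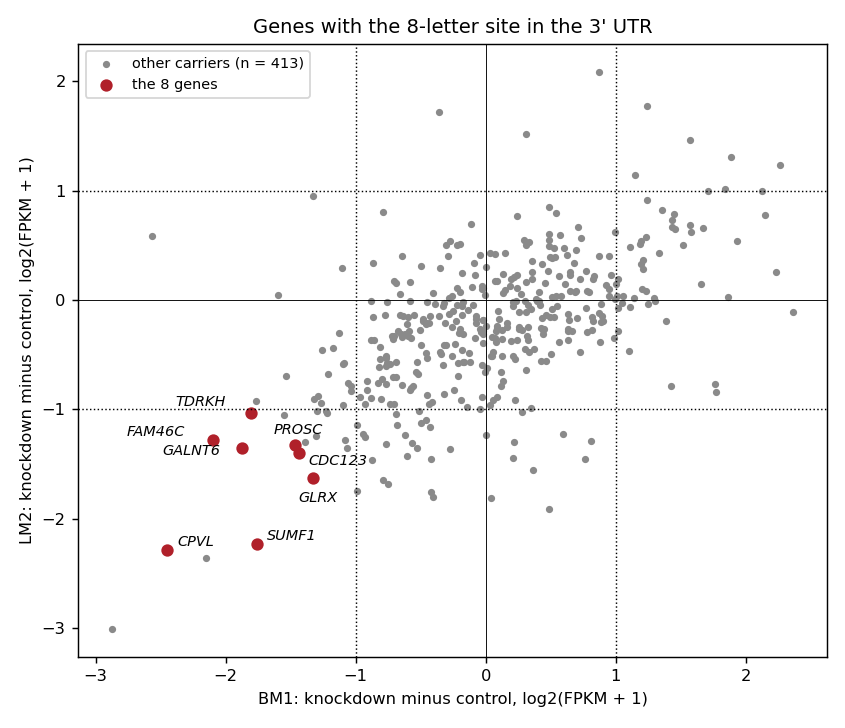
Knockdown minus control in BM1 (x axis) against LM2 (y axis), on log2(FPKM + 1), for the 421 tested genes with the 8-letter site; red points are the 8 genes, grey points the other 413, and dotted lines mark 2-fold. The 8 genes lie in the lower left corner by their choice, most other carriers lie near 0, and 6 carriers lie in the upper right corner.

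The site itself was found from the same changes. All 8-letter sequences present in at least 30 of the 3' UTRs were ranked by a score. The score was the mean change over both lines of the genes holding the sequence, times the square root of their number. Changes were first adjusted for the length and GC content of the UTR. A large number of carriers can therefore improve a rank, and rank 1 need not be the lowest mean change. CATAGGAA was taken as the site because it ranked 1 of 60645, so that rank is no separate result. It also ranked 1 with the 8 genes left out. It ranked 1 on the LM2 change alone and 2 on the BM1 change alone. Without the adjustment for UTR length and GC content it ranked 363, so the ranking depends on that adjustment. It was searched on the messenger strand and was in the 3' UTR of 421 of 11287 genes (3.73%). Its reverse complement was in 3.69%.

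Among the 421 carriers, 18 (4.28%) were at least 2-fold lower in both lines, against 1.89% of all 11287 genes with a 3' UTR. The 8 genes are part of those 18, and with them left out the share was 10 of 413 (2.42%). Leaving them out removes only genes past the limit, so it lowers any such share, and the 1.89% still includes them. Ranked by mean change among carriers, the 8 genes held place 2 and places 4 to 10. Place 1 was TGFBR2, the type II TGF-beta receptor, at 56.4 and 6.84 FPKM in BM1, against 37.2 and 3.76 in LM2. Place 3 was LBR, the lamin B receptor, at 30.4 and 6.06 FPKM in BM1, against 47.5 and 8.45 in LM2. The other carriers past the limit in both lines were GPR137B, FADS1, BAG3, AKAP2, NUDCD2, CYB561A3, PPP5C and BICD2, with mean changes from -1.34 (GPR137B) to -1.12 (BICD2). FADS1, a fatty acid desaturase, was at 109 and 36.3 FPKM in BM1, against 77.7 and 37.1 in LM2. BAG3, a co-chaperone of HSP70, was at 78.8 and 31.2 FPKM in BM1, against 58.4 and 24.1 in LM2.

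Carriers lay close to the limit on both of its sides. Of the 8, TDRKH was just inside it, with a smaller change of -1.03, and FAM46C came next at -1.28. Of the other carriers, CYB561A3 (-1.01) and BICD2 (-1.02) were just inside. Just outside were HSF2, a heat shock transcription factor (-0.99 in BM1 and -1.75 in LM2), PHYH, a peroxisomal hydroxylase (-0.99 and -1.14), and ODF2, a centriole appendage protein (-1.10 and -0.96). Other carriers were higher in the knockdown libraries. At least 2-fold higher in both lines were 6 of 421 carriers, against 223 of all 11287 genes with a 3' UTR, and nothing is read from that count. Among the 6 was TGFB2 (named after its values were seen), at 6.64 and 27.3 FPKM in BM1, against 13.5 and 34.8 in LM2.

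The form of the site went with different changes in the 2 lines, as the cumulative plot of changes by site shows. In LM2 the median change was -0.21 for the 421 genes with the 8-letter site. It was -0.06 for 608 genes with CATAGGA but not the full site, 0.00 for 1079 genes with ATAGGAA but not the other forms, 0.03 for 1102 with only the core ATAGGA, and -0.02 for 8077 genes without the core. In BM1 the medians in the same order were 0.03, 0.05, 0.19, 0.19 and -0.03. A change of at least 2-fold downward in LM2 was found in 11.9% of genes with the 8-letter site and 3.78% of genes without the core. In BM1 the shares were 8.79% and 6.29%. The shares with the site include the 8 genes, which were chosen for falls past 2-fold. With them left out the share was 10.2% in LM2 and 7.02% in BM1, and the medians were -0.19 and 0.05. These are descriptions, since the site was chosen on these changes and the genes share their libraries.

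**Figure D3:**
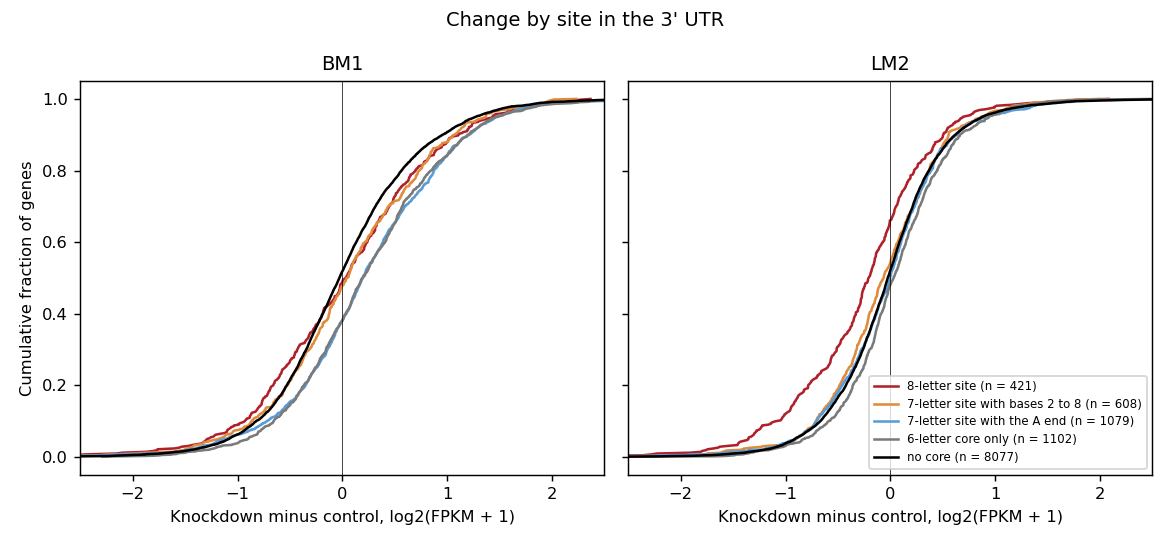
Cumulative fraction of genes (y axis) by change on log2(FPKM + 1) (x axis, drawn from -2.5 to 2.5) in BM1 (left) and LM2 (right), 1 line per form of the site in the 3' UTR. In LM2 the red line (8-letter site) lies left of the others, with a median of -0.21, and in BM1 it crosses the line of genes without the core.

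The length of the 3' UTR moved with both the change and the site. Genes with the 8-letter site had a median 3' UTR of 3378 bases, and genes without the core one of 962 bases. In BM1, genes without the 8-letter site had a median change of -0.16 with 3' UTRs of up to 1000 bases and of 0.26 with 3' UTRs over 3000 bases. In LM2 the corresponding medians were -0.08 and 0.04. With 3' UTRs of up to 1000 bases, carriers had a median change of -0.37 in BM1 and -0.49 in LM2, and 8 of 46 (17.4%) were at least 2-fold lower in both lines. Of those 8, 5 belong to the genes described here. Without them the count was 3 of 41 (7.32%), against 91 of 4433 (2.05%) among genes of that length without the site. The medians of the carriers without them were -0.26 in BM1 and -0.39 in LM2. For 3' UTRs over 1000 and up to 3000 bases the shares were 2.76% with and 1.78% without the site, and above 3000 bases 2.61% and 1.31%. With the 8 genes left out, the shares with the site were 2.08% (3 of 144) and 1.75% (4 of 228). What part UTR length had in the changes was not tested.

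**Figure D4:**
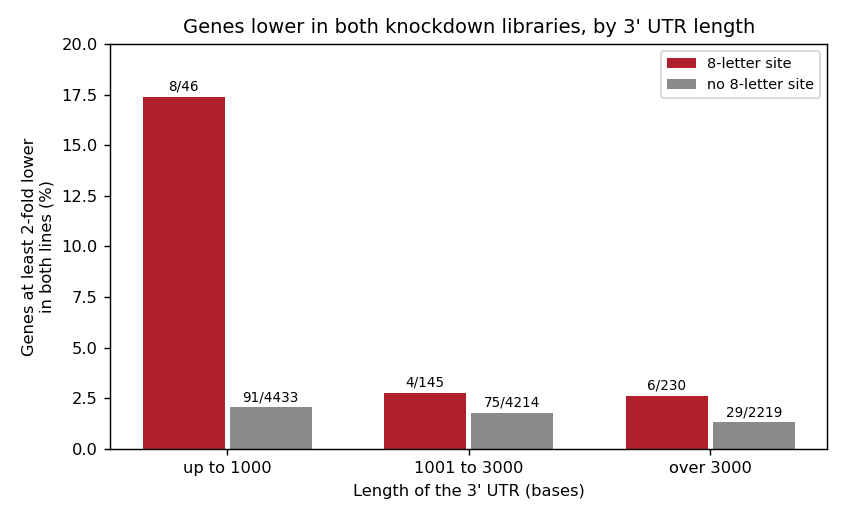
Share of genes at least 2-fold lower in both lines (y axis, %) by length of the 3' UTR (x axis), with red bars for genes with the 8-letter site and grey bars for genes without it; the numbers above the bars are genes lower and genes in the class. The red bar for 3' UTRs of up to 1000 bases stands at 17.4%, and 5 of its 8 genes belong to the genes described here.

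The place of the site varied among the 8 genes. Each has 1 copy, lying between 70 bases (CPVL) and 3953 bases (FAM46C) after the stop codon, or 9.14% (PROSC) to 91.3% (FAM46C) of the way along the 3' UTR. The median place was 51.4% of the way, and 47.8% in the other 413 carriers. In CDC123 the site is 40 bases from the annotated end. The 3' UTRs of the 8 genes were shorter than those of other carriers, with a median of 996 against 3432 bases, and 5 of 8 were up to 1000 bases long against 9.93% of the others. The 30 bases on each side were 38.3% A or T in GALNT6 and 80.0% in CDC123 (median 55.8%, against 61.7% in other carriers). The base before the site was A in 3 genes, G in 3, T in 2 and C in 0. In the other 413 carriers it was A in 141, G in 73, T in 101 and C in 98.

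Annotated transcripts of a gene do not all hold the site. It was in all coding transcripts of CPVL (5 of 5), FAM46C (1 of 1) and PROSC (1 of 1). The counts were 5 of 7 for TDRKH, 2 of 3 for CDC123, 2 of 5 for GLRX, 1 of 2 for GALNT6 and 1 of 4 for SUMF1. The table gives gene levels only, so which 3' UTR these cells use was not analysed here. CPVL, SUMF1, GALNT6, GLRX, TDRKH and CDC123 each overlap a gene of the opposite strand in the table, so their levels are uncertain to that extent. FAM46C and PROSC overlap none.

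**Figure D5:**
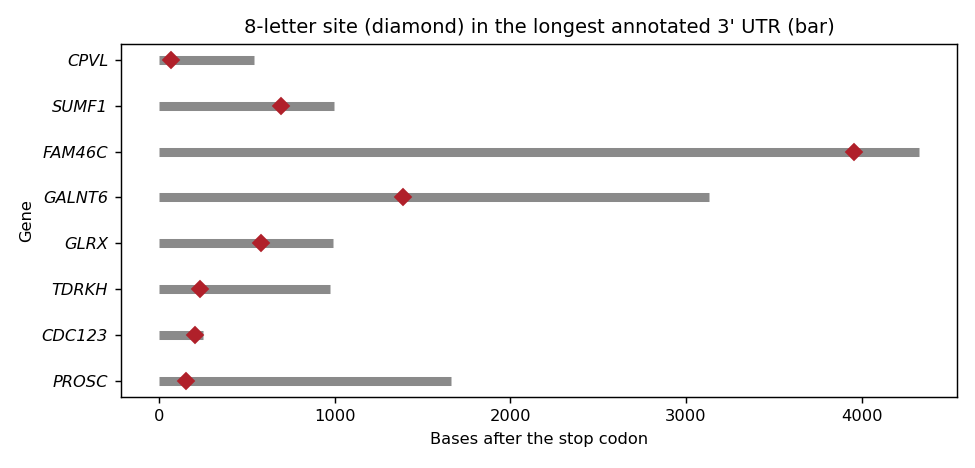
Longest annotated 3' UTR of each gene (grey bar) with the 8-letter site (red diamond), in bases after the stop codon (x axis). The site is 70 bases after the stop codon in CPVL and 3953 bases after it in FAM46C, and the 3' UTRs run from 252 bases (CDC123) to 4328 bases (FAM46C).

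Lists of genes drawn up by function were examined, with limma over all tested genes and cell line as a term. They held genes related to the 8 genes or working with them, and the RNA interference machinery, which belongs with none of the 8. Of 101 listed names, 73 were tested, and 3 were called higher and 1 lower, where 2.71% of all tested genes were called higher and 2.76% lower. Their median change was 0.03 in BM1 and 0.11 in LM2. Serine carboxypeptidases (2 genes), sulfatases with SUMF2 (13), other FAM46 genes (2), tudor and piRNA genes (4), eIF2 genes (9) and vitamin B6 enzymes (3) had 0 calls in either direction. In the sulfatase list the median change was 0.16 in BM1 and 0.12 in LM2. Its largest mean changes were in SGSH, heparan sulfatase of the lysosome (0.80 ± 0.25, adjusted p 0.101, limma), and SUMF2, the paralog of SUMF1 (-0.72 ± 0.31, adjusted p 0.196, limma). SGSH changed by 0.91 in BM1 and 0.69 in LM2, and SUMF2 by -1.26 in BM1 and -0.17 in LM2. CTSA, the lysosomal protective protein related to CPVL, was at 66.5 and 95.4 FPKM in BM1, against 69.1 and 108 in LM2. SCPEP1, the other carboxypeptidase listed, was at 28.7 and 22.1 FPKM in BM1, against 21.0 and 18.4 in LM2. FAM46B, of the FAM46 family, was at 7.11 and 6.54 FPKM in BM1, against 3.61 and 8.32 in LM2. The tudor and piRNA genes with the largest mean changes were PLD6, a mitochondrial enzyme of piRNA production (0.70, adjusted p 0.165, limma), and TDRD7, a Tudor domain protein (-0.31, adjusted p 0.549, limma). In the eIF2 list the median change was -0.27 in BM1 and 0.04 in LM2. The largest mean changes there were in EIF2S3 (0.61) and EIF2S1 (0.52), neither called and both opposite in sign to the list's BM1 median.

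The remaining lists held the called genes. Of 16 genes of the GALNT family and the next steps of O-glycosylation, 1 fell and 1 rose. GALNT14 fell in BM1 from 6.65 to 2.40 FPKM, in LM2 from 6.19 to 1.45 (-1.36 ± 0.26, adjusted p 0.0249, limma), and its 3' UTR lacks the core of the site. GALNT1 rose in BM1 from 17.0 to 61.0 FPKM, in LM2 from 20.5 to 36.7 (1.30 ± 0.30, adjusted p 0.0441, limma). Of 11 genes of the glutaredoxin, thioredoxin and glutathione system, TXNRD1, a thioredoxin reductase, rose in BM1 from 111 to 534 FPKM, in LM2 from 184 to 380 (1.65 ± 0.32, adjusted p 0.0274, limma). TXNRD1 overlaps EID3 and RPL18AP3 on the same strand, so its level is uncertain. Of 13 genes of the RNA interference machinery, DICER1, the enzyme that cuts microRNA precursors and shRNAs, rose in BM1 from 6.82 to 35.5 FPKM, in LM2 from 14.5 to 31.7 (1.65 ± 0.32, adjusted p 0.0259, limma). DICER1 overlaps DICER1-AS1 on the opposite strand. Of 10 alternative settings, 2 kept the call for GALNT14, TXNRD1 and DICER1 and 1 for GALNT1, with adjusted p-values up to 0.82 (limma). The 4 calls also ended in the fits with any 1 library left out, but those fits lacked the cell line term as well. Without that term no gene was called even with all 4 libraries. The fits with a library left out therefore cannot show whether the calls depend on 1 library.

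The 8-letter site was also in 4 of the 73 listed genes, where it was in the 3' UTR of 3.73% of all 11287 genes. Nothing is read from that count. FAM46A, the paralog of FAM46C, was at 1.53 and 0.838 FPKM in BM1, against 2.48 and 1.5 in LM2, changes of -0.46 and -0.48. AGO2, the Argonaute protein that cleaves paired messenger RNAs, was at 22.5 and 9.41 FPKM in BM1, against 13.4 and 9.64 in LM2, changes of -1.18 and -0.44. GCLM, a subunit of glutamate-cysteine ligase, had changes of 0.55 and -0.06, and C1GALT1, the core 1 enzyme of O-glycosylation, changes of 0.95 and 0.10. None of these 4 genes was called.

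The genes most like the 8 in pattern were looked for by the root mean square distance of their 4 centred log2 values from the mean profile of the 8. The 5 nearest over the 4 libraries were RALB (0.0657), RAB38 (0.0758), RNF20 (0.0760), GAMT (0.0761) and CORO2B (0.0857). RALB was at 28.9 and 8.89 FPKM in BM1, against 28.5 and 8.75 in LM2. None of the 5 has the full 8-letter site, which is in the 3' UTR of 3.73% of 11287 genes. RALB has ATAGGAA, CORO2B has CATAGGA, and RAB38, RNF20 and GAMT lack the core. Of the 8 genes, CDC123 was nearest to their own mean (0.139) and CPVL farthest (0.388). The 5 were picked as the closest among all 13928 tested genes. Nothing about the site is read from their lying closer than any of the 8.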

How the data were processed

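RNA from 4 cultures, 1 library each, was analysed from 1 table in which the authors deposited FPKM values, per the file headers and labels. The submitters' processing notes name STAR 2.5.3a, Cuffdiff 2.2.1 and GRCh37. Libraries were stranded and paired-end, per the labels. Annotation release, scaling and use of strand in counting: not given in the sources used here. Of 20369 entries, 40 with repeated gene IDs were left out, and of the 20329 left, 13928 with a mean of at least 1 FPKM were tested. Values were analysed as log2(FPKM + 1). limma 3.58.1 (R 4.3.3) fitted cell line and treatment, without trend or robust options, with Benjamini-Hochberg adjustment at 0.05, and was tested on simulated data. The labels do not say whether cultures were independent. With 1 library per line and arm, the residual of the fit is the gap between the BM1 and LM2 changes of a gene, moderated over genes by limma. The p-values are set against that gap and not against a spread between replicates. The cell line pairs the libraries: deviations from the arm means had a Pearson r of 0.545 between libraries of a line, across 13928 genes. Exact permutation of 2 pairs cannot give a two-sided p below 0.5.

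Sites were searched in GENCODE 29 transcripts matched by gene ID without version. Of the tested genes, 11287 had a 3' UTR of at least 8 bases, and the transcript with the longest was used. Coordinates printed are GRCh38. The table's own coordinates were used to find overlapping genes and not to place the sites. Depth came from steps of FPKM times length in 1623 low genes with 1 transcript. Between 36.1% and 44.1% of these products lay within 0.02 of a whole number, too few for a count test.

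The 8 genes, the site and the lists were chosen with earlier results of these data known. Named genes were the 8, HNRNPM, the 5 nearest in pattern, the other carriers 2-fold lower in both lines and 3 just outside, and in each list the called genes or else the 2 with the largest change. Other settings tried were pseudocounts (0.1 and 0.5), no filter, median-ratio size factors, quantile normalization, a 1.5-fold rule, fits without a term, each library left out, and other forms and annotations of the site. The splits by UTR length, the other rankings of the site and, for the share of carriers, the pseudocount of 0.5, no filter and quantile normalization were added after seeing the data.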

Additional observations from a re-analysis of the deposited data

How the results depend on the processing

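All 8 genes were past 2-fold in both lines with pseudocounts of 0.1 and 0.5 and without the filter, and 7 were with median-ratio size factors or quantile normalization, where TDRKH in LM2 missed it. With any library left out (values not paired by line), all 8 had a mean change past 2-fold, from -2.60 (CPVL) to -1.05 (TDRKH). The number of genes called between the lines among the 8 was 0 in every setting run. Leaving out a library, without the treatment term, leaves the lines with unequal arms and turned the sign of LM2 minus BM1: the values ran from -1.60 to 0.86 (CPVL), -0.86 to 1.37 (SUMF1), -1.42 to 0.68 (FAM46C), -0.44 to 1.43 (GALNT6), -0.94 to 0.68 (GLRX), -0.56 to 1.24 (TDRKH), -0.81 to 0.62 (CDC123) and -1.10 to 0.37 (PROSC). The knockdown contrast called 762 genes in limma. It called 27 with a pseudocount of 0.1, and 0 without the filter (3735 at an unadjusted p under 0.05), with quantile normalization (3255), without pairing by line (no replicate block, 1548) and with any library left out (860 to 1943, counts from 0 to 0 after adjustment). The fits with a library left out also lacked the cell line term. The cause of these losses was not tested. The share of carriers 2-fold lower in both lines was 4.28%. It was 7.36% with a pseudocount of 0.1, where the share over all 11287 genes was 3.46% instead of 1.89%, and the share without the 8 genes was 5.57%. It was 17.4% for 3' UTRs of up to 1000 bases (7.32% without the 8 genes), and between 2.61% and 5.46% in the other settings. The ranking of the site moved to 2 on BM1 alone and to 363 without adjustment.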

Other observations

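The 8-letter sequence also occurs in coding sequences. In 122 tested genes it was in the coding sequence while the 3' UTR held neither 7-letter form. Their median change was 0.22 in BM1 and -0.01 in LM2, and 1 of them (0.82%) was at least 2-fold lower in both lines. Carriers with 2 or more copies in the 3' UTR numbered 20, with median changes of 0.40 in BM1 and -0.46 in LM2, and 1 of them was at least 2-fold lower in both lines. The 401 carriers of 1 copy had medians of 0.03 and -0.19.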
